A study of Mus musculus with 5 samples.

Results

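Expression of 10 immune checkpoint genes was compared between lung leukocytes of mice whose tumour had been irradiated and of mice whose tumour had not. The genes were the ligands Cd274, Pdcd1lg2, Cd80 and Cd86 and the receptors Pdcd1, Ctla4, Icos, Lag3, Havcr2 and Tigit, chosen by name. All 10 had a row among the 14457 gene symbols of the table. The cells had been sorted for CD45, a surface protein of leukocytes, from lungs of mice bearing MC38/MC38 tumors, MC38 being a mouse colon adenocarcinoma cell line. The lungs were collected 3 days after irradiation, and the libraries were labelled IR (n = 2) or ctrl (n = 3). The labels give no strain, age, radiation dose or number of animals per library, and both groups carried the same tumours. Nothing says that the libraries came from separate animals, so each p-value measures the spread between these libraries, which may be technical.

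Checkpoint receptors are surface proteins that tune T cell activation. CTLA-4 and the co-stimulatory receptor CD28 compete for the ligands CD80 and CD86 on antigen-presenting cells, and ICOS, a relative of CD28, binds a ligand of its own. PD-1, encoded by Pdcd1, is engaged by PD-L1 (Cd274) and PD-L2 (Pdcd1lg2), while LAG-3, TIM-3 (Havcr2) and TIGIT restrain T cells and NK cells through other ligands. In lung, PD-L1 and the CD80/CD86 pair are carried by myeloid cells and dendritic cells, and regulatory T cells are known for high CTLA-4. The series title concerns immune suppression by radiotherapy and metastasis. The comparison here gives transcript levels only and measures neither.

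The values were read counts scaled between libraries by the authors and are called scaled read counts here. By the smallest step between values, the libraries held roughly 8080000 and 10050000 reads in IR and 8030000 to 10230000 in ctrl. Ptprc, which encodes CD45 itself, stood at 17369 and 27247 scaled read counts in IR and at 15543 to 15842 in ctrl, so the sorted marker was abundant in every library. Genes were tested with limma on log2(value + 1), and a gene was called at a Benjamini-Hochberg adjusted p under 0.05 over all 12777 genes that reached 10 scaled read counts in at least 2 libraries. Of these genes 192 were called. Leaving out ctrl replicate 1, 2 or 3 gave 19, 23 or 95 calls, and leaving out IR replicate 1 or 2 gave 1006 or 96. Every fit without an IR library sets 1 IR library against 3 ctrl libraries, takes the spread among libraries from ctrl alone and assumes that the lone library varies alike. The IR libraries differed from each other in cell markers. Summed levels in IR replicates 1 and 2 and over ctrl were 6221, 5145 and 8356 to 10074 for 15 T cell markers, 70235, 135247 and 28886 to 51481 for 10 neutrophil markers, and 118404, 57480 and 23189 to 27348 for 12 epithelial markers, a class the sort should remove. Scgb1a1, a secretoglobin gene of airway club cells, supplied most of the epithelial sum. Without it, the other 11 summed to 14432 and 6492 in IR, against 6741, 4233 and 3861 in ctrl, so for this sum IR replicate 2 lay among the ctrl libraries. Single genes within it differed. Scgb3a2 had 4236 and 2497 in IR, against 554, 639 and 550 in ctrl. Sftpc had 1476 and 166 in IR, against 2074, 248 and 779 in ctrl. None of the T cell, neutrophil or epithelial markers was at 0 in any library. The part of these marker shifts in the results below was not tested. Ratios to summed markers are given below for the checkpoint genes, and they do not measure that part.

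The stretches before the transcription start of 3 genes are shown because 2 of them, Ctla4 and Cd80, were the checkpoint genes whose IR and ctrl libraries did not overlap, and the third, Cd274, had the highest level. Each is 250 bases on the plus strand from RefSeq (GRCm38.p6), Ctla4 at chr1:60908775-60909024, Cd80 at chr16:38458683-38458932 and Cd274 at chr19:29367188-29367437. The RefSeq starts of Ctla4 and Cd80 lie inside the wider GENCODE vM21 spans of these genes, which begin upstream of the windows. Capitals mark GGAAA, the core bound by NFAT factors of activated T cells, on either strand.
Ctla4: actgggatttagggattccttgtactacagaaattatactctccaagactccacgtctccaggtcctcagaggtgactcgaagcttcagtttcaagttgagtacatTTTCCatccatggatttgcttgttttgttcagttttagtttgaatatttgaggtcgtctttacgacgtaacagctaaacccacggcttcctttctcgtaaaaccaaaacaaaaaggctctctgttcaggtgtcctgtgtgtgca
Cd80: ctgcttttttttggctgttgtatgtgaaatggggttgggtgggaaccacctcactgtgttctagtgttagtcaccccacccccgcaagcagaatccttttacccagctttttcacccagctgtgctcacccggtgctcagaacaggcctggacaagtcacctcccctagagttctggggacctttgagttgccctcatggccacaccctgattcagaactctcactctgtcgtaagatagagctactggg
Cd274: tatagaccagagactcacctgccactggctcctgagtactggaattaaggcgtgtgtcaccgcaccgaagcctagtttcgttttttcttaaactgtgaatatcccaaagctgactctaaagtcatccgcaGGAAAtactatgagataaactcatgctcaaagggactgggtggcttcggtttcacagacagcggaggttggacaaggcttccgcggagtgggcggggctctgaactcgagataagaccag
Of the 10 genes 7 matched a promoter in the table. Of these, 5 held GGAAA on either strand, against 55.6% of all 32851 promoter windows of that length. The match began 144 bases before the start in Ctla4 and 120 bases before it in Cd274, and Cd80 had none. An interferon-stimulated pattern of TTTC, any 2 bases and TTTC again was in 0 of the 7 windows on either strand, against 2.98% of all windows. The patterns were searched separately, and the interferon-stimulated one can contain TTTCC, the reverse complement of GGAAA. A match is a description of letters only.

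None of the 10 genes was called. All 10 passed the filter on low values, Pdcd1 through ctrl libraries alone, and 0 of 10 had a limma adjusted p under 0.05, where 1.50% of all genes tested did. At an unadjusted p under 0.05 there was 1, Ctla4, against 15.0% of all genes, and Ctla4 was under 0.05 in 9 of 15 other settings. The IR libraries lay wholly above or below the ctrl libraries in 2 of 10, Cd80 above and Ctla4 below, against 31.5% of all genes. The fold changes split evenly, 5 positive and 5 negative, with a median log2 fold change of 0.04 over the 10 genes and -0.05 over all genes. Their median absolute log2 fold change was 0.67, against 0.48 over all genes. In 5 of the 10, Cd274, Havcr2, Tigit, Cd86 and Icos, the IR libraries fell on opposite sides of the ctrl mean.

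**Figure D1:**
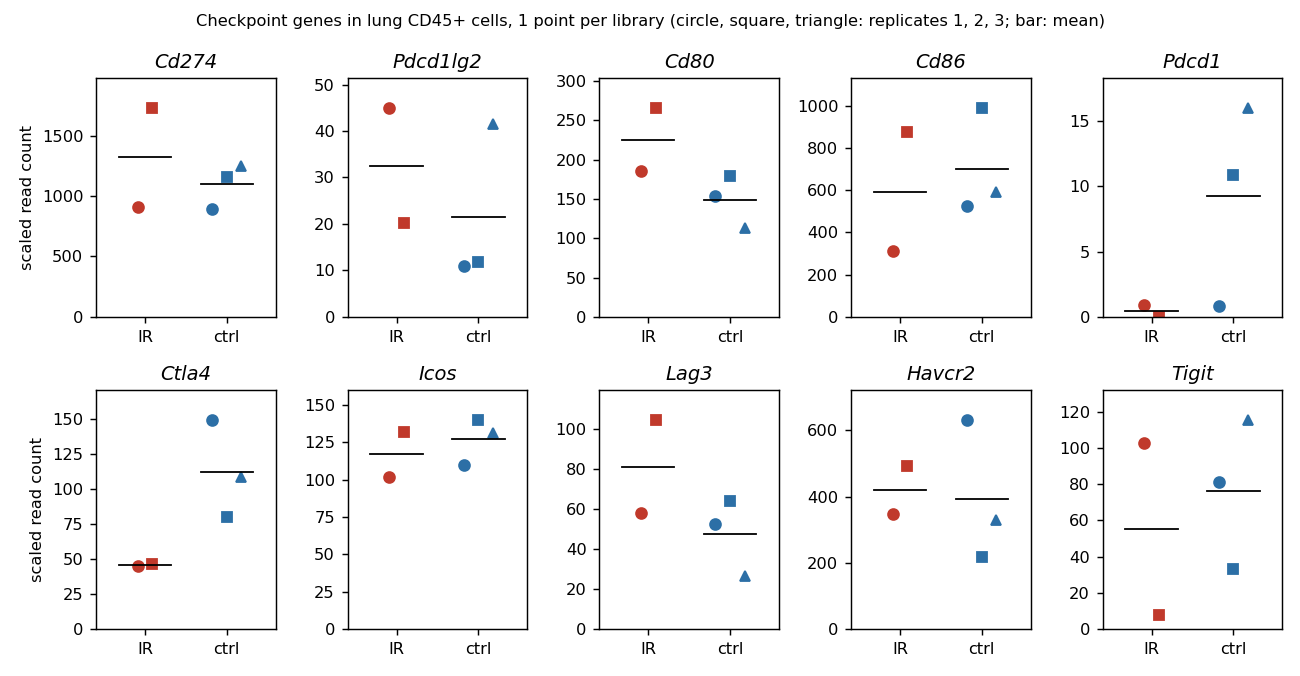
Scaled read counts of the 10 checkpoint genes in each library, IR to the left of ctrl, with replicates 1, 2 and 3 as circle, square and triangle and the group mean as a bar. Ctla4 is low in both IR libraries (44.9 and 46.2) and Cd80 high in both (185.1 and 265.6), and the other 8 panels overlap.

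**Figure D2:**
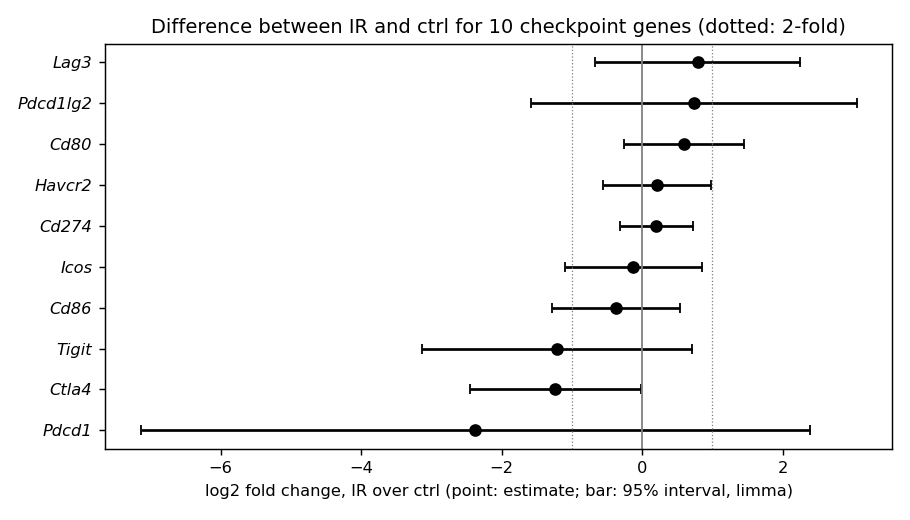
Log2 fold change of each checkpoint gene, IR over ctrl, with its 95% interval from limma; dotted lines mark 2-fold. The estimate is tightest for Cd274 (-0.32 to 0.73) and widest for Pdcd1 (-7.14 to 2.39).

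Among the ligands, Cd274 (chromosome 19, 29367455 to 29388095) was the most abundant. It had 912.3 and 1726.5 scaled read counts in IR, against 895.8, 1157.4 and 1245.4 in ctrl. IR replicate 2 exceeded every ctrl library and IR replicate 1 lay near the lowest of them. The log2 fold change was 0.20 with a 95% interval of -0.32 to 0.73 (limma adjusted p = 0.752). Without IR replicate 2 it was -0.26 and without IR replicate 1 it was 0.66 (limma adjusted p = 0.814 and 0.128). An annotated gene on the opposite strand, AC119228.1, overlaps 285 exon bases of Cd274, and the strand setting of the counting is not given in the sources used here.

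Pdcd1lg2, encoding PD-L2, lies 22.8 kb downstream of Cd274 and was low throughout. Its values were 44.9 and 20.1 scaled read counts in IR, against 10.9, 11.9 and 41.6 in ctrl, or roughly 13 to 57 reads. The groups overlapped through ctrl replicate 3. The log2 fold change of 0.73 had an interval of -1.59 to 3.05 (limma adjusted p = 0.805), which held both a 2-fold rise and a 2-fold fall. The estimate lay between 0.17 without IR replicate 1 and 1.33 without ctrl replicate 3.

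Cd80 and Cd86 encode the ligands shared by CD28 and CTLA-4. Cd80 had 185.1 and 265.6 scaled read counts in IR, against 153.8, 179.0 and 113.8 in ctrl. Both IR libraries exceeded all ctrl libraries, IR replicate 1 by a small margin. The log2 fold change was 0.60 ± 0.41 (SE) with a 95% interval of -0.26 to 1.45 (limma adjusted p = 0.531), and lay between 0.34 and 0.86 over 15 other settings. Cd86 had 311.3 and 875.9 scaled read counts in IR, against 527.4, 988.4 and 592.1 in ctrl. IR replicate 1 was below all ctrl libraries, and IR replicate 2 was among them. The fitted change was -0.37 ± 0.41 on the log2 scale (SE), with an adjusted p of 0.725 in limma. It was -1.12 without IR replicate 2 and 0.37 without IR replicate 1 (limma adjusted p = 0.105 and 0.525).

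Both ligands of CD28 could be set against each other within a library, where scaling has no effect. Cd86 was 168% and 330% of Cd80 in IR, against 343%, 552% and 520% in ctrl. The IR libraries lay below all ctrl libraries, IR replicate 2 narrowly. The mean log2 ratio was 1.23 in IR and 2.20 in ctrl, a difference of -0.97, with p = 0.2 in an exact two-sided permutation test and 0.24 adjusted over 6 such pairs. With 2 against 3 libraries this test cannot give less than 0.1. Cd274 to Pdcd1lg2 had log2 ratios of 4.31 and 6.36 in IR and of 4.87 to 6.49 in ctrl, which overlapped (exact permutation p = 0.6).

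**Figure D3:**
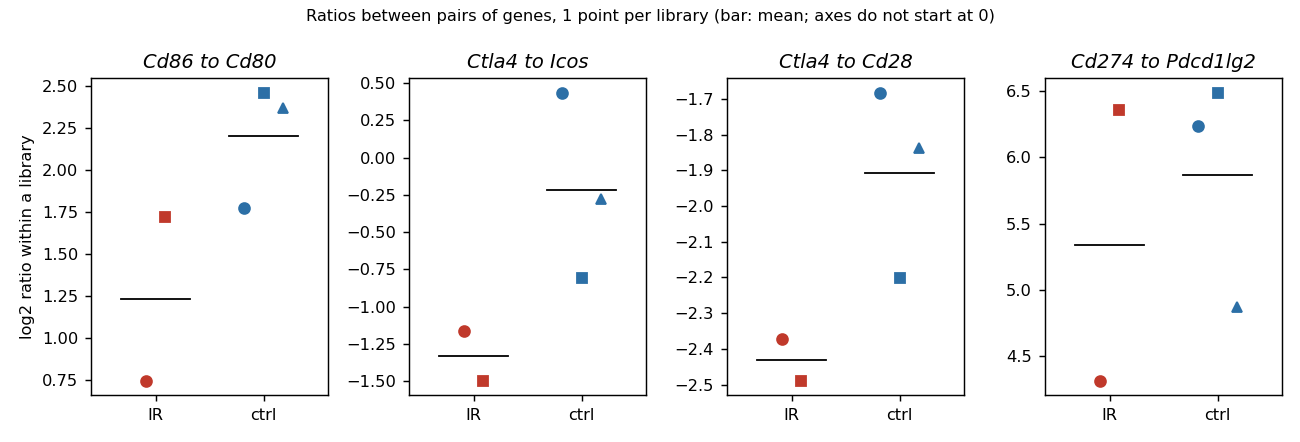
Log2 ratios between 4 pairs of genes in each library, IR to the left of ctrl, with the group mean as a bar; the axes do not start at 0. Cd86 to Cd80 and both Ctla4 ratios are lower in both IR libraries than in every ctrl library, and Cd274 to Pdcd1lg2 overlaps. Both Ctla4 ratios use the same Ctla4 values, which did not overlap by themselves.

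The ligands were also set against 8 genes of class II presentation, which antigen-presenting cells express. In limma 0 of the 8 genes passed (4 at an unadjusted p under 0.05, against 15.0% of all genes). The summed class II level was 39969 and 35023 in IR, against 37720 to 63818 in ctrl. Cd80 was 0.463% and 0.758% of that sum in IR, against 0.254%, 0.475% and 0.178% in ctrl, an overlap through ctrl replicate 2. Cd274 was 2.28% and 4.93% of it in IR, against 1.48%, 3.07% and 1.95% in ctrl. The log2 ratios to class II were higher in IR by 1.09 for Cd80, 0.70 for Cd274, 1.23 for Pdcd1lg2 and 0.12 for Cd86, and all 4 overlapped between groups (exact permutation p = 0.3, 0.4, 0.3 and 1). Adjusted over the 10 ratios to summed markers, these p-values were 0.5, 0.5, 0.5 and 1. Cd74 alone gave 25227 and 21175 of the class II sum in IR and 37350, 22638 and 39267 in ctrl. The 9 B cell markers summed to 7249 and 6065 in IR, against 6429 to 12236 in ctrl. A ratio to class II is not a level per antigen-presenting cell, and the part of cell composition in it was not tested.

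Among the receptors, Ctla4 (chromosome 1, 60887000 to 60915832) was the one whose IR and ctrl libraries did not overlap. It had 44.9 and 46.2 scaled read counts in IR, against 148.8, 79.5 and 108.1 in ctrl, or about 48 and 55 reads against 87 to 177. Both IR libraries were nearly equal and lay below all 3 ctrl libraries. The log2 fold change was -1.24 ± 0.59 (SE; 95% interval -2.45 to -0.02), which did not pass (limma unadjusted p = 0.0464, adjusted p = 0.323). The estimate lay between -1.46 and -1.01 over 15 other settings, with adjusted p between 0.253 and 0.627. The unadjusted limma p was over 0.05 with robust estimation off (0.0530), with array weights (0.0546), and without ctrl replicate 1 (0.169), ctrl replicate 3 (0.108), IR replicate 1 (0.0666) or IR replicate 2 (0.0611).

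In bulk samples, fewer cells of a type and less RNA per cell cannot be told apart. T cell markers were lower in IR beside Ctla4: 14 of 15 had negative fold changes, and the median log2 fold change was -0.77. In limma 2 fell, Cd3g among them, 0 rose and 13 did not pass, where 1.50% of all genes were called. At an unadjusted limma p under 0.05 there were 11 of 15, against 15.0% of all genes. The IR and ctrl libraries did not overlap in 11 of 15, against 31.5% of all genes. Cd3g encodes a CD3 subunit of the T cell receptor. Cd3g fell to 473.9 and 268.1 scaled read counts in IR, against 897.6, 773.7 and 806.7 in ctrl (limma adjusted p = 0.0250). Cd3g missed without IR replicate 2 or any ctrl library (adjusted p = 0.116 to 0.225) and was under the threshold without IR replicate 1, where 1 IR library is left and ctrl alone gives the spread.

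Ctla4 was then expressed as a share of the 15 T cell markers. It was 0.722% and 0.898% of their sum in IR, against 1.48%, 0.951% and 1.20% in ctrl. The IR libraries remained below the ctrl libraries, with a narrow gap to ctrl replicate 2. The difference in log2 ratio, IR minus ctrl, was -0.55, less than the log2 fold change of -1.24 of Ctla4 itself (exact two-sided permutation p = 0.2, adjusted p = 0.5 over 10 ratios). Against Foxp3, the defining transcription factor of regulatory T cells, the log2 ratio of Ctla4 was 0.22 and 0.19 in IR and 1.04, 0.70 and 2.74 in ctrl (exact permutation p = 0.2, adjusted p = 0.24). Foxp3 itself had 38.3 and 40.3 scaled read counts in IR, within the ctrl range of 15.3 to 71.8.

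Icos, which neighbours Ctla4 with a gap of 62.1 kb on chromosome 1, had 101.9 and 132.0 scaled read counts in IR, against 109.9, 139.8 and 131.4 in ctrl. The groups overlapped almost fully, with a log2 fold change of -0.12 and an interval of -1.09 to 0.85 (limma adjusted p = 0.932). As a share of the T cell markers Icos was 1.64% and 2.57% in IR, against 1.09%, 1.67% and 1.46% in ctrl. The log2 ratio of Ctla4 to Icos was -1.16 and -1.49 in IR, against 0.43, -0.81 and -0.28 in ctrl. The IR libraries were below all ctrl libraries, with a mean difference of -1.11 (exact permutation p = 0.2, adjusted p = 0.24).

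Cd28, the co-stimulatory competitor of CTLA-4, had 236.5 and 263.9 scaled read counts in IR, against 480.1, 369.0 and 389.1 in ctrl. Both IR libraries were below all ctrl libraries, with a log2 fold change of -0.71 (limma adjusted p = 0.277). Ctla4 was 19.0% and 17.5% of Cd28 in IR, against 31.0%, 21.5% and 27.8% in ctrl, which also did not overlap (exact permutation p = 0.2, adjusted p = 0.24). The ratios of Ctla4 to the T cell markers, Foxp3, Icos and Cd28 all use the same Ctla4 values, which did not overlap by themselves. These ratios are therefore not separate observations of a difference.

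Pdcd1, encoding PD-1, was near the floor of detection. It had 0.9 and 0 scaled read counts in IR, against 0.8, 10.9 and 16.0 in ctrl, or about 1 and 0 reads against 1, 12 and 22. The 2 higher libraries were both ctrl, and ctrl replicate 1 was as low as the IR libraries. The log2 fold change of -2.37 depends on the pseudocount (-2.90 with 0.5 and -0.79 with 10) and its interval ran from -7.14 to 2.39 (limma adjusted p = 0.676).

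Lag3, which encodes a receptor for MHC class II, had 57.9 and 104.2 scaled read counts in IR, against 52.4, 63.9 and 26.2 in ctrl. The groups overlapped through IR replicate 1 and ctrl replicate 2, and the log2 fold change was 0.79 ± 0.71 (SE), with an adjusted p of 0.647 in limma. It was 0.37 without IR replicate 2, 0.42 without ctrl replicate 3 and 1.21 without IR replicate 1. As a share of the T cell markers, Lag3 was 0.931% and 2.03% in IR, against 0.520%, 0.765% and 0.291% in ctrl, which did not overlap. The difference in log2 ratio was 1.48 (exact two-sided permutation p = 0.2, adjusted p = 0.5 over 10 ratios). The marker sum was itself lower in IR (6221 and 5145, against 8356 to 10074 in ctrl), which raises the share. Lag3 alone overlapped between groups. NK cells also express Lag3, and 9 NK cell markers summed to 3784 and 2598 in IR, against 2457 to 4308 in ctrl.

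Havcr2, encoding TIM-3, was the most abundant receptor. It had 348.7 and 491.7 scaled read counts in IR, against 630.5, 216.5 and 329.2 in ctrl. The ctrl libraries spanned the IR libraries on both sides, with a log2 fold change of 0.22 and an interval of -0.55 to 0.99 (limma adjusted p = 0.829). Macrophages and dendritic cells express Havcr2 as well as T cells, so its share of the T cell markers (5.61% and 9.56% in IR, against 6.26%, 2.59% and 3.65% in ctrl) is not a level per T cell.

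Tigit, which encodes an inhibitory receptor of T cells and NK cells, differed widely between the IR libraries. It had 102.8 and 7.5 scaled read counts in IR, against 81.1, 32.9 and 115.4 in ctrl, or about 110 and 9 reads against 36 to 159. IR replicate 2 was below all ctrl libraries and IR replicate 1 was among them. The log2 fold change of -1.21 (limma adjusted p = 0.578) was -3.01 without IR replicate 1 and 0.60 without IR replicate 2 (limma adjusted p = 0.0507 and 0.841). Cd226, the activating receptor that shares ligands with TIGIT, had 100 and 0.8 scaled read counts in IR, against 111.6, 76.7 and 106.6 in ctrl. It was low in the same IR library and had a log2 fold change of -2.86 (limma adjusted p = 0.360). With 1 IR library left it stood at -5.77 without IR replicate 1 (limma adjusted p = 0.000844, spread from ctrl alone) and at 0.04 without IR replicate 2.

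**Figure D4:**
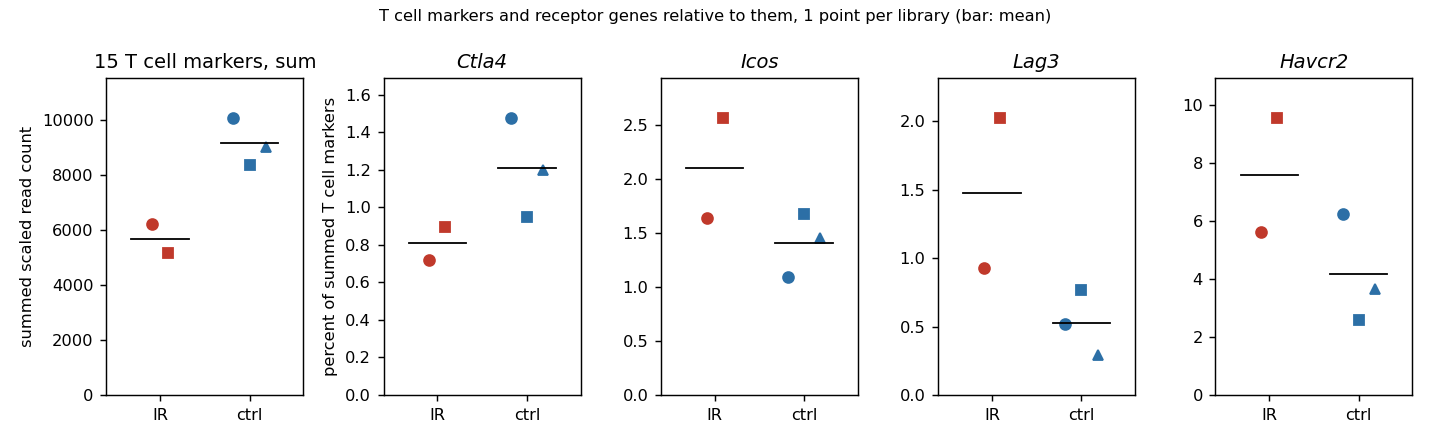
Summed scaled read counts of 15 T cell markers, and Ctla4, Icos, Lag3 and Havcr2 as a percentage of that sum, in each library with IR to the left of ctrl and bars at the mean. Both IR libraries are lower than ctrl for the marker sum and for the share of Ctla4, higher for that of Lag3, and overlap ctrl for Icos and Havcr2. A lower marker sum raises every share, and the scaled read counts of Lag3 overlapped between groups.

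Levels between genes were compared per kb of exon (GENCODE vM21). Cd274 stood first in both groups, with 364 ± 159 scaled read counts per kb in IR (SD, n = 2) and 304 ± 50.2 in ctrl (SD, n = 3). Cd86 and Havcr2 followed in both groups, at 162 and 154 per kb in IR and at 192 and 144 in ctrl. In IR the order went on with Cd80, Tigit, Lag3, Icos, Ctla4, Pdcd1lg2 and Pdcd1, and in ctrl with Tigit, Ctla4, Cd80, Icos, Lag3, Pdcd1lg2 and Pdcd1. Ctla4 was thus in place 8 in IR, at 19.5 ± 0.39 per kb (SD, n = 2), and in place 5 in ctrl, at 48.1 ± 14.9 per kb (SD, n = 3). Ranges of neighbours in the order overlapped in ctrl except between Icos and Lag3. In IR they were apart between Cd274 and Cd86, Havcr2 and Cd80, Icos and Ctla4, and Pdcd1lg2 and Pdcd1. Among the table's genes, Cd274 lay between percentiles 88.9 and 93.7 in IR and between 88.5 and 92.1 in ctrl, and Pdcd1 between 6.88 and 8.69 in IR and between 9.45 and 21.0 in ctrl.

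The most similar profiles over the 5 libraries were sought for the most abundant ligand and receptor among 7263 genes with a mean of at least 100. Likeness was the root mean square difference of centred log2 values. For Cd274 these were Skic8, Nr4a3 and Ddx60, with differences of 0.044, 0.051 and 0.057. For Havcr2 they were Dhps, Kifc3 and Copg2, with 0.103, 0.106 and 0.150. These are the smallest differences out of 7263 genes over only 5 libraries, and shared regulation was not tested.

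Partner genes of the pathway were described from lists. Of 19 inhibitory partners and receptors tested, 0 rose and 0 fell, the median log2 fold change was 0.13, and 6 had an unadjusted limma p under 0.05. Of 13 co-stimulatory ones, 0 rose and 0 fell, the median was -0.46, and 5 had an unadjusted p under 0.05. Of all genes tested, 15.0% had an unadjusted limma p under 0.05. Vsir, encoding the inhibitory receptor VISTA of myeloid and T cells, had 3259 and 3616 scaled read counts in IR, against 1670, 2101 and 2533 in ctrl. Both IR libraries exceeded all ctrl libraries, and the log2 fold change of 0.73 missed the threshold (limma adjusted p = 0.0723). It passed with a pseudocount of 10 (0.0476) and, with 1 IR library and the spread from ctrl alone, without IR replicate 1 (0.0483).

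Nectin2 and Pvr encode ligands that TIGIT and CD226 share. Nectin2 had 67.3 and 40.3 scaled read counts in IR, against 14.3, 0.9 and 14.5 in ctrl, with a log2 fold change of 2.79 (limma adjusted p = 0.327). With such low ctrl values the estimate depends on the pseudocount (2.96 with 0.5 and 1.74 with 10). Pvr had 100.9 and 99.2 in IR, against 183.4, 252.1 and 200.8 in ctrl, with a log2 fold change of -1.06 (limma adjusted p = 0.226). Neither gene's IR libraries overlapped ctrl, and neither gene passed. Groups did not overlap in 8 of the 19 inhibitory partners and receptors tested and in 31.5% of all genes. Cd96, a further receptor for the Pvr product, had a log2 fold change of -1.01 (limma adjusted p = 0.227) and stood at -1.49 without IR replicate 1 (adjusted p = 0.0352, with 1 IR library and the spread from ctrl alone).

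The remaining named partners had smaller fold changes. Lgals9, encoding a galectin that binds TIM-3, had a log2 fold change of 0.24 (limma adjusted p = 0.692), Ceacam1, another reported TIM-3 ligand, 0.13 (0.862), and Icosl, the ICOS ligand, 0.25 (0.721). Sirpa and Cd47, a receptor on phagocytes and its ligand, had 0.13 and 0.14 (limma adjusted p = 0.801 and 0.804). Cd2, an adhesion receptor of T cells, had -0.46 (0.312).

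**Figure D5:**
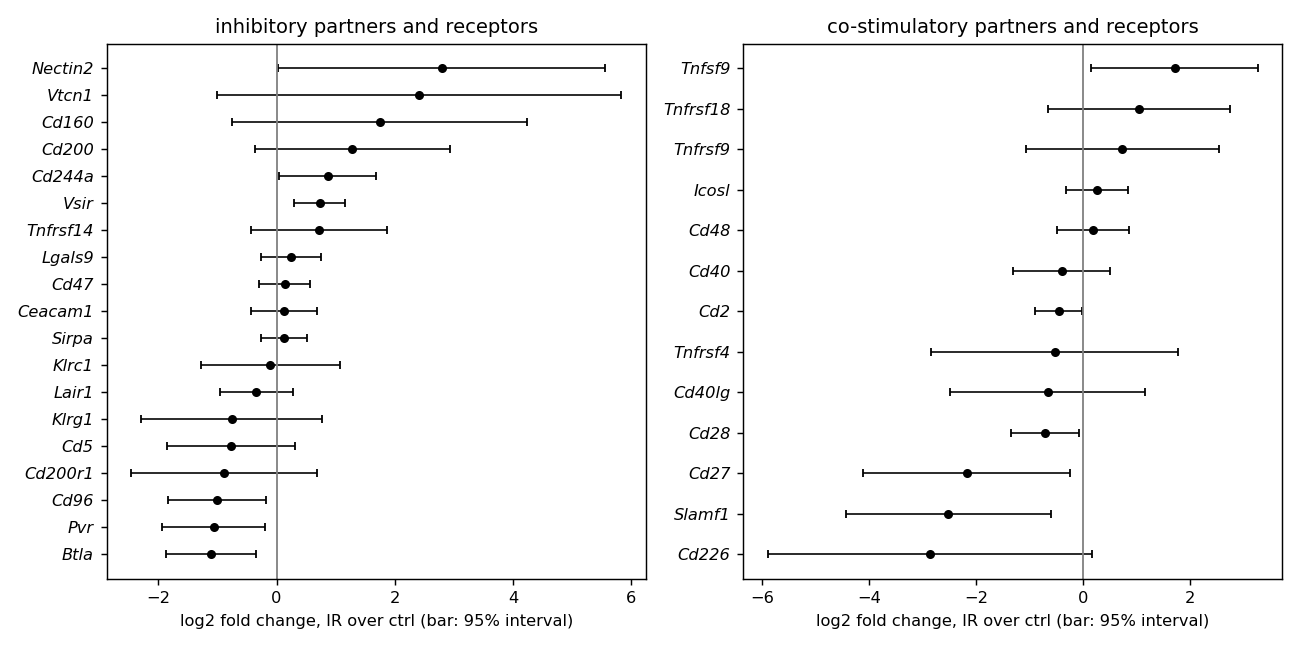
Log2 fold change, IR over ctrl, of 19 inhibitory and 13 co-stimulatory partner genes, with 95% limma intervals. The intervals of 6 inhibitory and 5 co-stimulatory genes exclude 0, Vsir and Nectin2 among those on the positive side and Pvr, Cd96 and Cd28 among those on the negative side, and 0 genes passed after adjustment. Of all genes tested, 15.0% had an unadjusted limma p under 0.05.

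Interferon gamma is a known inducer of PD-L1, acting through JAK kinases. Of 17 genes of interferon gamma signalling and PD-L1 control, 0 rose and 0 fell (median log2 fold change 0.12). At an unadjusted limma p under 0.05 there were 3 of 17, against 15.0% of all genes. Fold changes on the log2 scale were -0.02 for Jak1, 0.76 for Socs3 and 0.34 for Stat3 (limma adjusted p = 0.965, 0.0651 and 0.420). Socs3, a feedback inhibitor of cytokine signalling, had 3271 and 4403 scaled read counts in IR, against 1857, 2282 and 2660 in ctrl, without overlap. It passed with a pseudocount of 10 (limma adjusted p = 0.0380) and, with 1 IR library and the spread from ctrl alone, without IR replicate 1 (0.0145).

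Among 16 factors of T cell activation and exhaustion, Entpd1 rose, 0 fell and 15 did not pass (median log2 fold change 0.03). At an unadjusted limma p under 0.05 there were 4 of 16, against 15.0% of all genes. Entpd1 encodes CD39, an ectonucleotidase found on exhausted T cells, regulatory T cells and myeloid cells. It rose to 2004 and 3348 scaled read counts in IR, against 715.8, 1047 and 1263 in ctrl, which is 1.40 ± 0.26 on the log2 scale (SE), with an adjusted p of 0.00695 in limma. It did not pass when ctrl replicate 1 or ctrl replicate 2 was left out (adjusted p of 0.0972 and 0.0786 in limma). Without IR replicate 2 its log2 fold change was 1.03. Summed T cell markers were lower in both IR libraries than in ctrl and summed neutrophil markers higher. Which cells carried the rise of Entpd1 was not tested. Nr4a1 and Nr4a3 encode nuclear receptors induced early by stimulation. Their values were 0.44 and 0.20 on the log2 scale, with adjusted p of 0.290 and 0.708 in limma. Of 14 signalling genes below the receptors, 0 rose and 0 fell (median 0.04). At an unadjusted limma p under 0.05 there were 2 of 14, against 15.0% of all genes. Ptpn6, encoding a phosphatase (SHP-1) of inhibitory receptors, had 0.35, and the PI3 kinase genes Pik3cd and Pik3r1 had 0.04 and 0.06 (limma adjusted p = 0.408, 0.945 and 0.919).

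Of 9 markers of CD4, CD8 and regulatory T cells, 0 rose and 0 fell, with a median log2 fold change of 0.05. At an unadjusted limma p under 0.05 there was 1 of 9, against 15.0% of all genes. Of the 9, 5 had positive fold changes, all of them regulatory T cell markers, and 4 had negative ones, among them the co-receptor genes. The co-receptor genes Cd4, Cd8a and Cd8b1 stood at -0.22, -0.47 and -0.74 on the log2 scale, with adjusted p of 0.750, 0.602 and 0.307 in limma. Among the other sorted classes, 4 of 10 neutrophil and 2 of 9 classical monocyte markers rose, 1 of 9 B cell markers fell, and 0 of 9 NK cell, 0 of 12 dendritic cell and 0 of 12 alveolar macrophage markers passed in limma (2, 1 and 5 at an unadjusted p under 0.05). Of all genes 1.50% were called. An unadjusted limma p under 0.05 was found for 10 of 10 neutrophil, 3 of 9 monocyte and 3 of 9 B cell markers, against 15.0% of all genes. Fold changes were positive for all 10 neutrophil and all 9 monocyte markers and negative for all 9 B cell markers. Median log2 fold changes were 1.36 for neutrophil, 0.39 for monocyte, -0.49 for B cell, -0.09 for NK cell, -0.01 for dendritic cell and -0.54 for alveolar macrophage markers. Dendritic cell markers, of which Xcr1 was at 0 in IR replicate 2, summed to 3151 and 3351 in IR, against 3040 to 4863 in ctrl. Among cells the sort should remove, 2 of 12 epithelial markers rose, and 0 of 4 endothelial, 0 of 2 fibroblast, 0 of 2 platelet and 0 of 6 erythroid markers tested passed in limma (1, 0, 0 and 0 at an unadjusted p under 0.05). Of the epithelial markers 6 of 12 had an unadjusted limma p under 0.05, in either direction.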

How the data were processed

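Libraries of the CD45-sorted cells were made with the stranded SMARTer Pico kit, meant for small amounts of total RNA, per the labels' protocols. HISAT2, HTSeq and mm10 are named without versions or roles, per the submitters' processing notes. The deposited table holds 1 column per library. Its values have 1 decimal and step in near multiples of 1 amount per library, so they were read as a signal that the authors scaled from read counts. With a tolerance of 0.1 of a step, 86.1% to 100% of a library's low values came out whole, and the step drifted between genes. No count test was therefore used. Approximate reads are values divided by the step. Intervals of read counting could not be derived.

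Genes with at least 10 in at least 2 libraries were fitted as log2(value + 1) in R 4.3.3 by limma 3.58.1 with statmod 1.5.0, using its mean trend, robust estimation and no covariate. The fit was tested on simulated data in which both groups had the spread of ctrl. That test cannot show how the fit handles the differences between the IR libraries. P-values were adjusted by Benjamini-Hochberg over all genes, and all tests are two-sided. Fold changes on this scale understate the change of low genes. Ratios within libraries were compared by exact permutation. Exon lengths and coordinates came from GENCODE vM21 (GRCm38, the assembly of mm10) and promoters from RefSeq. The members and the 19 gene lists were chosen with earlier results of these data known. Named beyond the members were 8 partner genes and, for the partner, regulator and T cell lists, every called gene, filled up to 3 by highest mean; a gene and a pattern that were also selected are not reported here. The other marker lists are given by counts and sums. Alternatives covered scaling, pseudocount, filter, variance settings, denominators and each library left out.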

Additional observations from a re-analysis of the deposited data

How the results depend on the processing

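In all 15 alternatives 0 of the 10 checkpoint genes passed. Pdcd1 had no value with a mean of at least 50 or without ctrl replicate 2 or 3, and Pdcd1lg2 and Nectin2 had none with a mean of at least 50. Settings that kept every library turned no checkpoint gene's direction. With 1 library left out, log2 fold changes ran from -0.26 to 0.66 for Cd274, -1.12 to 0.37 for Cd86, -0.14 to 0.63 for Havcr2, -0.31 to 0.062 for Icos, 0.17 to 1.33 for Pdcd1lg2, 0.37 to 1.21 for Lag3 and -3.01 to 0.60 for Tigit. Havcr2 turned without ctrl replicate 2 (-0.14) and IR replicate 2 (-0.028), Cd274 and Tigit without IR replicate 2, and Cd86 and Icos without IR replicate 1. Log2 ratios, IR minus ctrl, ran from -2.19 to 1.15 for Tigit to the T cell markers, -0.72 to 0.96 for Cd86 to class II (-0.16 and -0.11 without ctrl replicates 1 and 3) and -1.55 to 0.49 for Cd274 to Pdcd1lg2. Over all genes, the 192 calls became 314 with a pseudocount of 10, 0 with the mean trend off (limma, 1245 at an unadjusted p under 0.05), and 19 to 1006 with a library left out. Scaling to library totals took the overall median log2 fold change to -0.17, and 55.2% of calls were higher in place of 76.0%. Without IR replicate 1 it was 44.4%. After that scaling Pik3cd stood at -0.081 and Pik3r1 at -0.062, and Jak1 at 0.0064 with array weights. With a library left out, values ran from -0.13 to 0.082 for Jak1, -0.046 to 0.30 for Sirpa, -0.20 to 0.61 for Nr4a3, -0.019 to 0.10 for Pik3cd, -0.12 to 0.60 for Lgals9, -5.77 to 0.043 for Cd226 and -0.20 to 0.47 for Ceacam1. Without IR replicate 1, where 1 IR library is left and ctrl alone gives the spread, Cd226, Nr4a1 and Ptprc were under the threshold (limma adjusted p = 0.000844, 0.0481 and 0.00761). Entpd1 and Cd3g missed with the mean trend off (0.476 and 0.476). The cause of these changes was not tested. No paired analysis was possible because no label links an IR library to a ctrl library.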
